A study of Mus musculus with 2 samples.

Results

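Semaphorins are guidance proteins, and plexins and neuropilins are the receptors that bind them. The genes described here were chosen by symbol, as every gene of the count tables named Sema3 to Sema7, Plxna, Plxnb, Plxnc, Plxnd, Nrp1 or Nrp2. That gave 34 of 32285 genes. They are 20 semaphorins, 9 plexins, 2 neuropilins and 3 antisense transcripts of Plxna4. Of the semaphorins, 7 belong to class 3, 6 to class 4, 2 to class 5, 4 to class 6 and 1 to class 7. The choice used no measured value.

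The tissue was the subventricular zone (SVZ) of the mouse, the wall of the lateral ventricle in which neurons and glia are still made after birth. Mice were allocated at postnatal day 5 either to controls or to MIP (modeled intestinal perforation). The SVZ was collected 48 h later, at postnatal day 7, and frozen. Nuclei of each group were counted in 1 library. The labels name no strain, sex, surgical detail or number of animals, and state the same breeding and freezing for both groups. Neither group has a replicate, so no test between them was possible. Every interval given with a level, share or ratio is a 95% interval that covers counting error only, and a ratio compares 2 libraries, not 2 conditions.

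After filtering, 14549 control and 10892 MIP nuclei were kept, with medians of 5602 and 6033 unique molecular identifiers (UMIs, one per captured RNA molecule). The X-linked Xist stood at 1746 UMIs for every 1000000 in control nuclei and 1.48 in MIP nuclei, and 4 genes of the Y chromosome (Eif2s3y, Kdm5d, Uty and Ddx3y) summed to 0.324 and 473. Sex and group therefore cannot be told apart in any ratio below. The 115 barcodes that occurred in both libraries were left in, and leaving them out moved none of the 67 results recomputed past its interval or, for counts, past 1.5 times. Clusters of low depth held 3513 control and 712 MIP nuclei and were left out of the named classes. Nuclei were clustered without the 34 genes and named from marker genes, so each class name means nuclei that resemble that type. The 9 named classes were astroglia, cycling progenitors, neuroblasts, oligodendrocyte precursors, differentiating oligodendrocytes, microglia, spiny projection neurons, interneurons and excitatory neurons. Another 4 neuronal clusters kept numbers: cluster 1 (led by Prlr), cluster 8 (Tshz1 and Foxp2), cluster 9 (Pde11a, Isl1 and Drd3) and cluster 20 (Pkib, Drd3 and Isl1). Spiny projection neurons and excitatory neurons lie in the striatum and cortex beside the SVZ, so the dissection held more than the germinal zone.

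Class 3 semaphorins are secreted. Most of them bind a neuropilin, which holds the ligand, while a plexin A or plexin D carries the signal into the cell; Sema3e can bind Plxnd1 directly. Classes 4 to 7 sit in the membrane and mostly bind plexins without a neuropilin: Sema4d binds Plxnb1, Sema6a and Sema6d bind class A plexins, and Sema7a binds Plxnc1. Activated plexins switch off small Ras-family GTPases and rearrange the cytoskeleton, and they are known for steering axons, migrating neurons and vessels. In the SVZ region, neuroblasts travel along the rostral migratory stream towards the olfactory bulb, and semaphorins are among the cues studied there.

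Of the class 3 genes, Sema3d, Sema3a, Sema3e and Sema3c lie in that order within 5.35 Mb of chromosome 5. Sema3c and Sema3e differed most between the libraries in neuroblasts (below), so the promoter windows of these neighbours are shown, from 250 bases before to 50 bases after the start (RefSeq, build GRCm38.p6, plus strand). Of the 31 coding members, 26 had an entry in that promoter table. In the annotation used for gene positions here (GENCODE M21), Sema3c starts at 17574281, before its window. The whole Sema3c window thus lies inside the gene as annotated there. Capitals mark matches to 3 motifs searched on both strands: a GC box (GGGCGG), an E-box (CACGTG) and a homeodomain core (TAATTA). The last pair reads the same on both strands, and no matches overlapped.
Sema3c, chr5:17574566-17574865: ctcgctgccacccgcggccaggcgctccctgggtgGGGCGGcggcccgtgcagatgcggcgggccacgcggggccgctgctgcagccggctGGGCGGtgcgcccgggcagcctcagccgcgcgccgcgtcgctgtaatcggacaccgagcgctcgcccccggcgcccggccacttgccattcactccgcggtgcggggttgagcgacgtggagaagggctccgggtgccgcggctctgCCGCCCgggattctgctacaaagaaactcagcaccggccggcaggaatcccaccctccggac
Sema3e, chr5:14025026-14025325: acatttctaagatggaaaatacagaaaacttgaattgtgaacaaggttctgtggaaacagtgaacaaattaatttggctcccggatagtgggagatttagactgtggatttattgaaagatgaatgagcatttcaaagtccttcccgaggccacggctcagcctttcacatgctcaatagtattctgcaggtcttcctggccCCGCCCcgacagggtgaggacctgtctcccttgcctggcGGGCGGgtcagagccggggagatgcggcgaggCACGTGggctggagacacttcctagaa

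The Sema3c window had 75.7% G or C and 3 GC boxes, and the Sema3e window had 50.7% and 2 GC boxes. Of all 32851 windows of this length, 35.7% held a GC box. The E-box stood in the Sema3e window and in 7.15% of all windows, and the homeodomain core stood in neither window and in 5.29% of all. These matches describe letters and say nothing of which factors bind.

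Levels are UMIs summed over the nuclei of a class, scaled to 1000000 UMIs of that class (CPM). They are compared between classes and libraries for 1 gene at a time, since UMIs of genes of different length are not on 1 scale. Among the 29 coding members with at least 100 UMIs over both libraries, 21 had their highest level in the same class or cluster in both libraries. Sema3b (75 control and 24 MIP UMIs over all nuclei) and Sema3g (14 and 6 UMIs) were too sparse to place. In what follows, highest means highest among the 9 named classes and 4 numbered clusters; classes with too few nuclei to be compared are given apart.

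**Figure D1:**
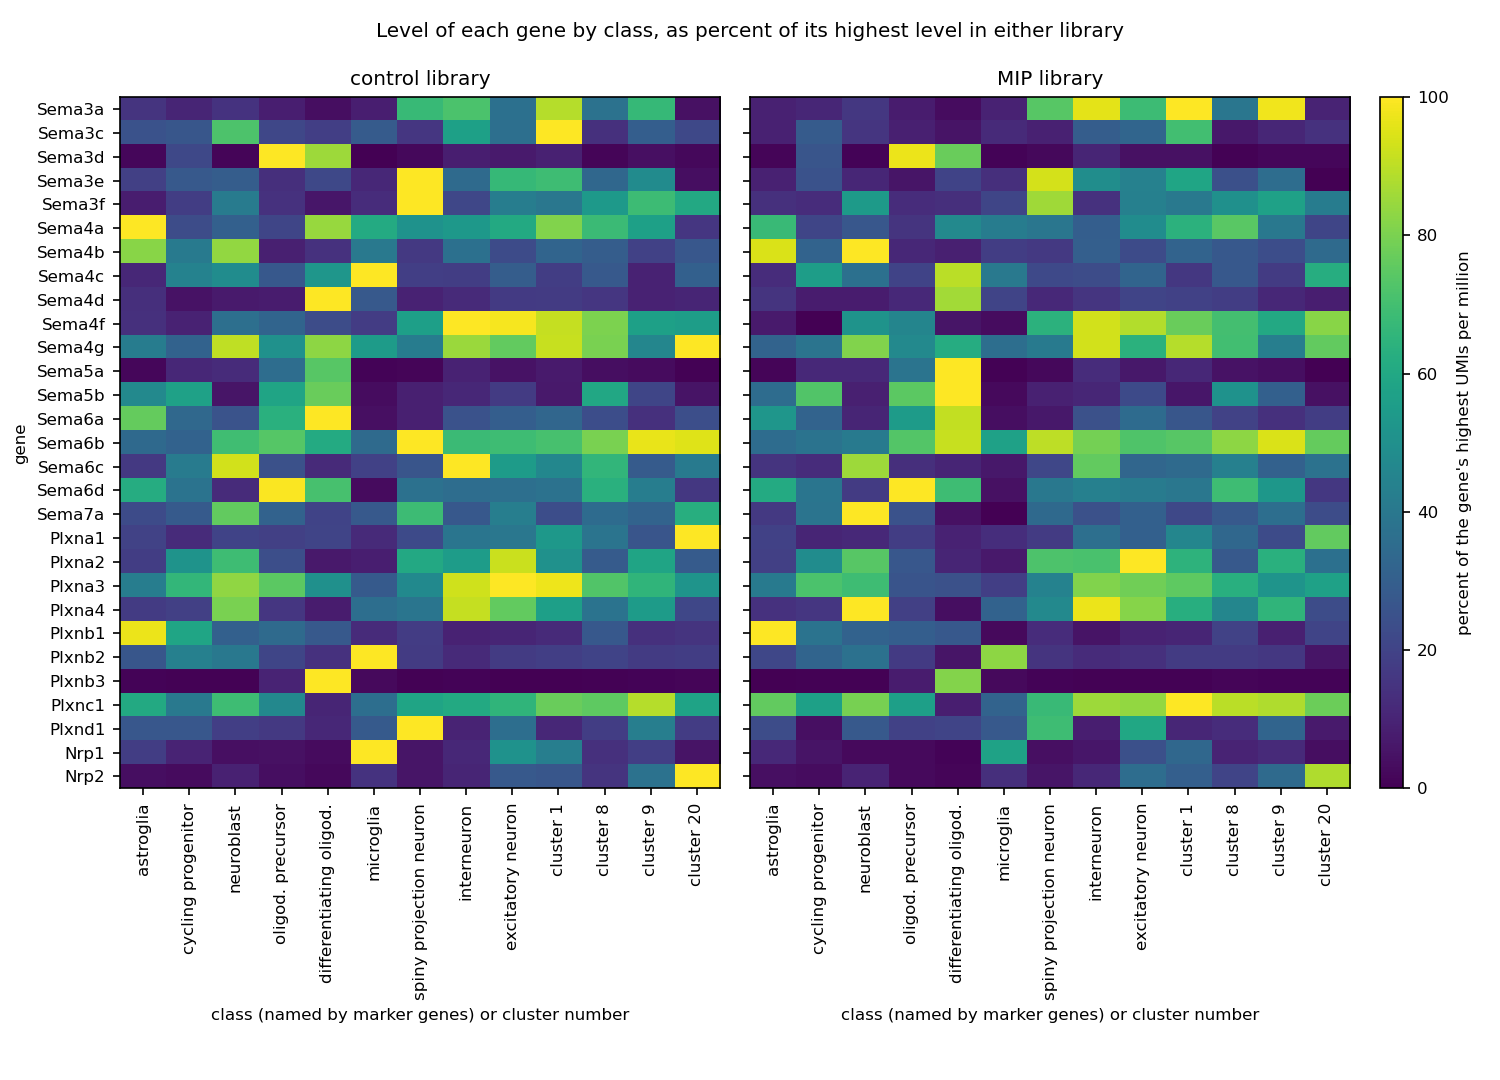
Level of 29 coding members in 9 named classes and 4 numbered clusters, control on the left and MIP on the right, as percent of the gene's highest CPM in either library. Sema5a, Sema5b, Sema6a, Sema4d and Plxnb3 are brightest in differentiating oligodendrocytes in both libraries, Nrp1 and Plxnb2 in microglia, and Nrp2 in cluster 20.

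The ligands divided by lineage. Among the compared classes, differentiating oligodendrocytes had the highest level of 5 members. Sema5a, a membrane semaphorin with thrombospondin repeats, stood at 1171 CPM in control and 1581 in MIP nuclei there, and at 566 and 611 in oligodendrocyte precursors, the next class. Its relative Sema5b stood at 360 and 466 in differentiating oligodendrocytes. Sema4d, a ligand of Plxnb1 known in oligodendrocytes, stood at 443 and 381 in that class and at 123 and 91.3 in microglia, the class next below. Sema6a, which signals to Plxna2 and Plxna4, was at 480 and 435 there. Endothelial nuclei, too few to be compared (21 and 11), had more of it, at 1071 (914 to 1247) and 612 (410 to 879). Plxnb3 was the receptor closest to this pattern, at 144 and 117 in differentiating oligodendrocytes and 14.1 and 11.1 in their precursors. Oligodendrocyte precursors themselves had the highest Sema6d (2145 control and 2158 MIP) and the highest Sema3d (172 and 167). In both libraries Sema3d was next in differentiating oligodendrocytes, at 147 and 133.

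Among the compared classes, neurons had the highest levels of the other class 3 ligands that could be placed. Sema3a, the classic repellent of axons, was highest in cluster 1 at 153 and 172 CPM. Of the compared classes, spiny projection neurons had the highest Sema3e, at 73.2 and 68.4. Ependymal nuclei, the ciliated lining of the ventricle, were too few to be compared, and their Sema3e stood at 123 (93.6 to 158) and 87.4 (56.6 to 129), with a MIP interval that included the level of spiny projection neurons. The receptor Plxnd1 was highest among compared classes in spiny projection neurons too, at 42.6 and 29.4, and its endothelial level is given below. Sema3f, a ligand of Nrp2, was also highest there, at 21.9 and 18.8. Sema3c was highest in cluster 1, at 54.2 and 37.7. Endothelial nuclei, too few to be compared, had it at 64.9 (31.1 to 119) and 63.3 (13.1 to 185), from 10 and 3 UMIs. Leptomeningeal fibroblasts, too few to be compared (37 and 71 nuclei), had Sema3a at 294 (237 to 361) and 481 (412 to 559), above its level in any compared class.

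The receptors were split between cell types as well. Nrp1, the neuropilin that also binds vascular growth factors, was highest in microglia at 392 control and 226 MIP CPM. Nrp2 was highest in cluster 20 at 814 and 717, and so was Plxna1 at 62.3 and 47.4. Plxnb1 was highest in astroglia at 71.7 and 74.0, and Plxnb2 in microglia at 79.1 and 65.7. Plxna2 was highest in excitatory neurons at 432 and 470. Plxna4 had its highest levels in interneurons (714 and 760) and neuroblasts (625 and 783), and which of the pair came first differed between the libraries. In the few endothelial nuclei Nrp1 was at 383 (291 to 494) and 359 (209 to 574), and Plxnd1, a vascular plexin, at 208 (142 to 293) and 84.4 (23.0 to 216).

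Neuroblasts were the class in which Sema3c, a secreted ligand of both neuropilins, differed most. The class was 1 cluster of 1226 control and 711 MIP nuclei, with 7 neuroblast markers among its leading genes, Sp8, Dlx6os1, Dlx1, Igfbpl1, Dlx2, Sp9 and Dcx. In the control library its nuclei held 197 Sema3c UMIs, or 39.0 CPM (33.7 to 44.9). In the MIP library they held 16 UMIs, or 8.28 CPM (4.73 to 13.4). The intervals did not overlap, and the log2 ratio of MIP to control was -2.24 (-3.07 to -1.50). Sema3c lies on the plus strand of chromosome 5 from 17574281 to 17730268 (mm10), with no other annotated gene overlapping it.

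The control UMIs came from many nuclei. Sema3c was counted in 101 of the 1226 control neuroblasts, 36 of which had at least 2 UMIs and 1 of which had 13. The 10 highest nuclei held 33.5% of the UMIs. In MIP neuroblasts 16 nuclei had 1 UMI each. The median depth of the class differed, at 3596.5 UMIs in control and 2438 in MIP neuroblasts. With every nucleus thinned to 2000 UMIs, 4.39% of control neuroblasts (3.31 to 5.71, 53 of 1206) and 1.52% of MIP neuroblasts (0.66 to 2.98, 8 of 525) had Sema3c; 20 and 186 shallower nuclei were left out. Without thinning the shares were 8.24% (6.76 to 9.92) and 2.25% (1.29 to 3.63). Among nuclei of at least 3000 UMIs the log2 ratio was -2.04 (-3.28 to -1.03), and among shallower ones -1.38 (-2.81 to -0.07).

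Microglia were taken as a background class for free RNA, on the assumption that they lack Sema3c, which was not tested. They had 17 and 7 Sema3c UMIs, or 15.6 (control) and 6.39 (MIP) CPM, and their share after thinning to 2000 UMIs was 1.67% for control (0.545 to 3.86) and 1.66% for MIP nuclei (0.542 to 3.83). Unthinned, 5.35% of control microglia (median depth 3146.5 UMIs) and 1.86% of MIP microglia (2706) had a UMI. Read against these values, the MIP neuroblasts were at the background share. The control neuroblasts as a class were above it in level and share, although the thinned intervals overlapped (3.31 to 5.71 against 0.545 to 3.86). Most of them were nearer to it: in a finer group given below, 75.1% of control neuroblasts had 20.7 CPM (16.2 to 26.2). The microglial level was itself lower in the MIP library, with a log2 ratio of -1.29 (-2.80 to 0.05). Its part in the neuroblast ratio was not tested. In the low-depth clusters Sema3c stood at 44.9 (38.7 to 51.8) control and 38.4 (24.4 to 57.7) MIP CPM, not below the neuroblasts of either library. The reading above therefore depends on microglia as the reference. Markers of spiny projection neurons summed to 6873 and 5663 CPM in neuroblasts, with none of the 14 at 0 in either library. Their sum in spiny projection neurons was 9210 and 8594. How much of the neuroblast sum was free RNA, and how much the neuroblasts' own, was not tested. Neuroblast markers summed to 26555 and 30505 in neuroblasts.

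**Figure D2:**
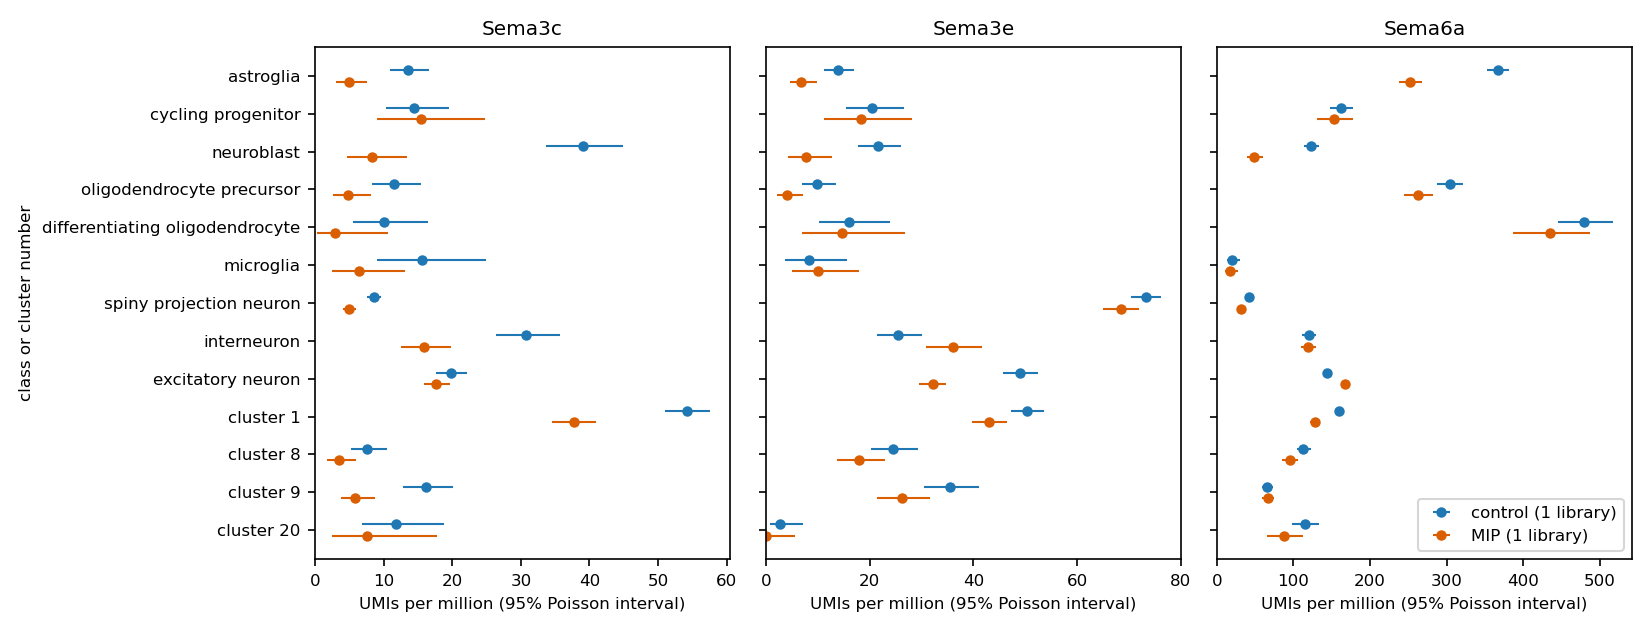
CPM of Sema3c, Sema3e and Sema6a in each class or cluster, with 95% Poisson intervals; blue is the control library and orange the MIP library. For each of the 3 genes the neuroblast intervals lie apart, and the Sema3c intervals of cycling progenitors overlap.

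A finer clustering (Leiden resolution 2) put nearly all neuroblasts, and all of their Sema3c UMIs, in 3 groups, and most of the control UMIs were in 1 of them. This group was led by Lgr5, Frmd7, Adamts19, Cpa6, Lgr6, Prokr2 and Tshz1. Its neuroblast name rested on Dlx1, Dcx and Sp8 alone, none of them among its 10 leading genes. It held 277 control and 39 MIP nuclei, or 22.6% and 5.49% of the class. It had 122 of the 197 control UMIs of Sema3c, at 78.6 CPM (65.3 to 93.9), and 3 of the 16 MIP UMIs, at 16.9 (3.49 to 49.4). The log2 ratio inside the group was -2.22 (-4.51 to -0.64).

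The other two groups were each nearly all of 1 library. One held 921 control and 35 MIP nuclei, with Sema3c at 20.7 (16.2 to 26.2) and 18.7 (2.26 to 67.5) CPM and a ratio of -0.15 (-3.22 to 1.76). The other held 24 control and 631 MIP nuclei, with Sema3c at 46.2 (15 to 108) and 6.76 (3.37 to 12.1) and a ratio of -2.77 (-4.41 to -0.90). Both were led by Mob3b, Sp8, Dlx6os1 and Cdca7. Each of the 3 groups was then given the same weight in both libraries, its nuclei pooled over both. That gave a Sema3c log2 ratio of -1.44 for the class, without an interval. This value rests on few UMIs. The group of 24 control nuclei had 5 control UMIs, the group of 35 MIP nuclei had 2 MIP UMIs and the Lgr5 group 3. A smaller share of the Lgr5 group and a lower Sema3c level inside it were thus both measured.

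**Figure D3:**
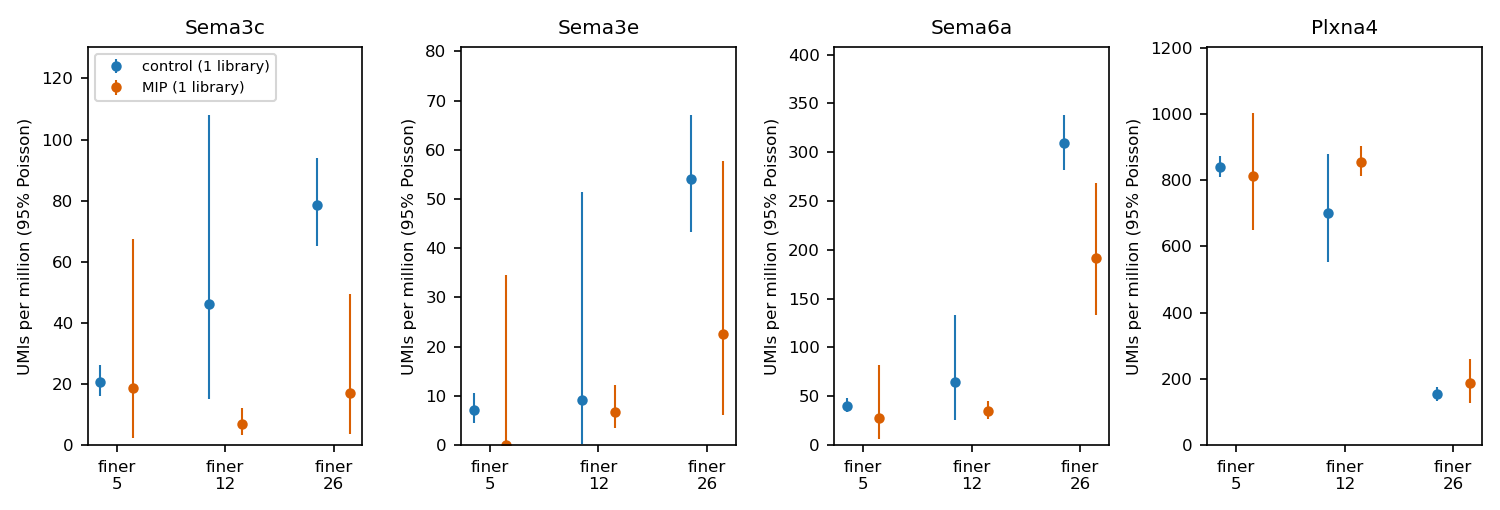
CPM of Sema3c, Sema3e, Sema6a and Plxna4 in the 3 finer groups of neuroblasts (finer 26 is led by Lgr5 and Frmd7), with 95% Poisson intervals; blue is control and orange MIP. In finer 26 the control level of Sema3c, Sema3e and Sema6a is above that in finer 5, and Plxna4 is lower in finer 26 than in the other groups.

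Of the 31 coding members, 27 were measured in neuroblasts, meaning at least 60 UMIs over both libraries. Of these, 2 were at least 1.5 times higher in the MIP library and 6 at least 1.5 times lower, against 5.83% and 10.5% of all 10491 genes measured in the class. The median log2 ratio of the 27 was 0.04, and that of all genes -0.02. The 6 lower ones were Sema3c, Sema3e, Sema6a, Sema6b, Nrp1 and Plxna1, and the 2 higher ones Sema5b and Plxnd1. In this class and in those below, members past 1.5-fold are named even where they fell outside the naming rule, and those were chosen after their values were seen.

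Sema6a had 623 control and 95 MIP UMIs in neuroblasts, at 123 (114 to 133) and 49.1 (39.8 to 60.1) CPM, a log2 ratio of -1.33 (-1.65 to -1.01). After thinning to 2000 UMIs, 14.3% of control nuclei (12.4 to 16.5) and 8.57% of MIP nuclei (6.32 to 11.3) had it, against 3.34% and 3.32% of microglia. Like Sema3c it was concentrated in the Lgr5 group, at 309 in control and 192 in MIP nuclei, with a ratio of -0.69 (-1.24 to -0.19) inside that group. In the other groups the Sema6a ratios were -0.52 (-2.82 to 1.05) and -0.88 (-2.02 to 0.49). Among nuclei of at least 3000 UMIs the ratio was -0.97 (-1.40 to -0.57), and among shallower ones -0.41 (-1.07 to 0.24). The class ratio of -1.33 was thus larger in size than in any of these groups or depth ranges. The part of group shares and depth in it was not tested.

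Sema3e had 109 and 15 UMIs in neuroblasts, at 21.6 (17.7 to 26.0) and 7.76 (4.34 to 12.8) CPM, a ratio of -1.48 (-2.36 to -0.69). Of its control UMIs 56.9% were in 10 nuclei, with 21 in 1 nucleus. In the Lgr5 group it stood at 54.1 and 22.5, a ratio of -1.26 (-3.17 to 0.15). Among nuclei of at least 3000 UMIs the Sema3e ratio was -1.63 (-3.11 to -0.46), and among shallower ones -0.02 (-1.61 to 1.64). After thinning the shares were 1.91% (1.21 to 2.85) and 1.14% (0.421 to 2.47), neither above those of microglia at 2.34% and 1.99%. Sema6b, another ligand of class A plexins, had 84 and 19 UMIs and a ratio of -0.76 (-1.56 to -0.03). That direction turned to 0.16 (-0.34 to 0.65) when classes were assigned from marker scores.

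On the receptor side, Plxna4 was higher in MIP neuroblasts, at 625 (603 to 647) control and 783 (744 to 824) MIP CPM, a log2 ratio of 0.33 (0.24 to 0.42). The Lgr5 group had little of it, at 153 and 186 CPM, while the other groups had between 702 and 856 in both libraries. With each group given the same weight in both libraries, its nuclei pooled over both, the ratio was 0.09. The strand setting of the counting is not given in the sources used here, so Plxna4 and its overlapping antisense genes cannot be told apart. The antisense Plxna4os3 had a ratio of 0.40 (0.12 to 0.68), at 61.8 and 81.7 CPM. Nrp2 (75.4 and 80.7) and Plxna2 (324 and 348) had intervals of the ratio that included 0. Nrp1 had 85 and 19 UMIs, a ratio of -0.78 (-1.58 to -0.05), at 16.8 and 9.83 CPM, which is 4.30% of its highest class.

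**Figure D4:**
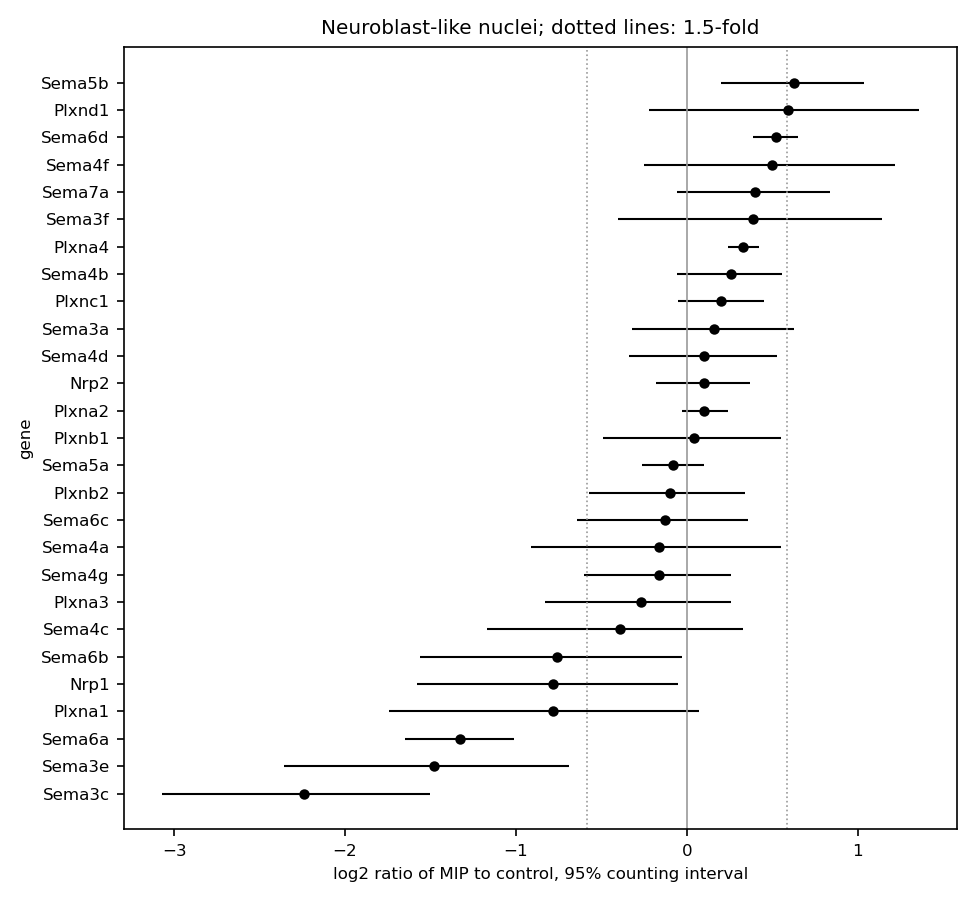
Log2 ratio of MIP to control for the 27 coding members measured in neuroblasts, with 95% counting intervals; dotted lines mark 1.5-fold. Sema3c, Sema3e and Sema6a lie left of the lower line with their whole intervals.

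By summed level, Nrp1 differed in 1 direction wherever it was measured. Over all nuclei it had 9877 control and 5161 MIP UMIs, at 86.5 and 62.0 CPM, a log2 ratio of -0.48 (-0.53 to -0.43). Its ratio was below 0 in each of the 11 classes and clusters where it was measured, from -1.07 to -0.35. Of the 5979 genes measured in all of those 11, 14.9% were likewise below 0 in every one. After thinning to 2000 UMIs, the intervals of the share with Nrp1 overlapped in astroglia, cycling progenitors, neuroblasts, oligodendrocyte precursors and spiny projection neurons. In cycling progenitors the shares were 4.87% control and 4.86% MIP. The intervals lay apart in interneurons, at 6.93% (4.82 to 9.6) and 2.35% (1.22 to 4.07), and in excitatory neurons and microglia (below). Nrp1 lies on the plus strand of chromosome 8, from 128358604 to 128503363.

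In excitatory neurons Nrp1 stood at 200 control and 95.1 MIP CPM, from 3343 and 1787 UMIs, a ratio of -1.07 (-1.15 to -0.99). The direction was the same in all 4 clusters of the class, with ratios of -1.19, -0.71, -0.66 and -0.89. After thinning to 2000 UMIs, 26.2% of control nuclei (23.4 to 29.2) and 14.8% of MIP nuclei (12.9 to 16.8) had Nrp1. For this gene microglia cannot serve as background, since they had its highest level.

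Microglia had 426 and 248 Nrp1 UMIs, at 392 and 226 CPM, a ratio of -0.79 (-1.02 to -0.56). After thinning, 43.5% of control (37.8 to 49.3) and 31.6% of MIP nuclei (26.3 to 37.1) had it, so the intervals did not overlap. The main microglial cluster, of 256 and 334 nuclei, had 298 and 200 CPM. A cluster led by Mrc1, F13a1 and Cd163, macrophage genes, had 1267 and 507 in 22 and 24 nuclei. The 10 nuclei with most Nrp1 held 26.5% and 26.6% of the class's UMIs. Sema4d had a microglial ratio of -0.43 (-0.82 to -0.05), from 123 to 91.3 CPM. Summed neuroblast markers in microglia were 1396 control and 860 MIP CPM, and those of spiny projection neurons 1696 and 1214, with none of either list at 0. Of 8 members measured in microglia, 1 was higher (Sema6d, which is lowest of all classes in microglia) and 1 lower (Nrp1), against 12.1% and 15.5% of genes.

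**Figure D5:**
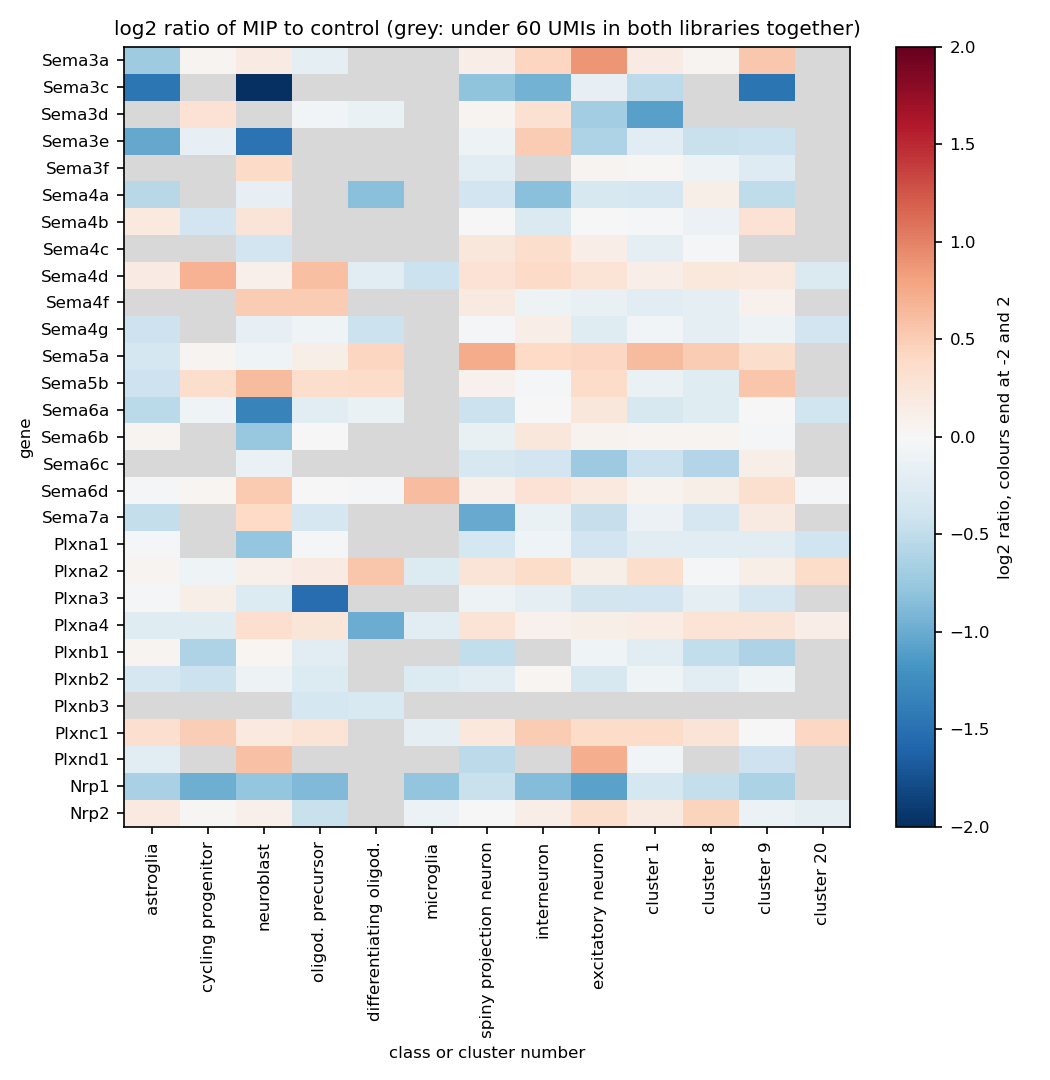
Log2 ratio of MIP to control for each coding member (rows) in each class or cluster (columns); blue is lower and red higher in MIP, grey marks under 60 UMIs over both libraries. The Nrp1 row is blue in all 11 measured columns, and the Sema3c row in all 7.

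Excitatory neurons also differed in ligands. Sema3a stood at 63.8 control and 118 MIP CPM, from 1069 and 2215 UMIs, a log2 ratio of 0.89 (0.78 to 0.99). It was higher in all 4 clusters of the class, with ratios of 1.10, 0.39, 0.46 and 0.92. Plxnd1 had a ratio of 0.72 (0.49 to 0.94), at 15.4 and 25.3 CPM, though 1 of the 4 clusters went the other way at -1.17 (-2.53 to 0.03). Sema3e, the ligand of Plxnd1, had a ratio of -0.61 (-0.76 to -0.45), at 49.0 and 32.2, and here the clusters disagreed: -1.75 and -1.09 in 2 of them, -0.07 in another, and 0.70 (0.39 to 1.01) in the last. Sema6c had 261 and 177 UMIs and a ratio of -0.73 (-1.01 to -0.44). Nrp2 was at 228 and 292 over the class, a ratio of 0.35 (0.29 to 0.41), but the 2 clusters with most of its UMIs had ratios of 0.06 (-0.05 to 0.17) and -0.01 (-0.09 to 0.08). The second of them had the highest Nrp2, 470 and 468 CPM, and held 223 control and 466 MIP nuclei. The smaller clusters had 0.45 (0.24 to 0.66) and 1.34 (1.13 to 1.56). With each cluster given the same weight in both libraries, its nuclei pooled over both, the Nrp2 ratio was 0.17. Of 28 members measured, 2 were higher (Plxnd1 and Sema3a) and 4 lower (Nrp1, Sema3d, Sema3e and Sema6c), against 2.67% and 14.4% of genes; their median was 0.02 and that of all genes -0.14. Sema3d was at -2.23 in 1 cluster, -0.71 and -0.19 in 2 others and 0.63 in the last. The share of excitatory neurons among kept nuclei was 6.45% in control and 12.5% in MIP nuclei.

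In spiny projection neurons the ratios ran from -1.01 (Sema7a) to 0.74 (Sema5a). Of 28 members 1 was higher (Sema5a) and 2 were lower (Sema3c and Sema7a), against 2.31% and 12.4% of genes, with a median of -0.07 beside -0.12. The Sema3c level of the class, from 282 and 109 UMIs, was below that of microglia in both libraries. Sema7a, a membrane-anchored ligand of Plxnc1, was counted in 587 control and 225 MIP nuclei, at 22.7 and 11.3 CPM, a ratio of -1.01 (-1.22 to -0.80). It was lower in all 4 clusters of the class, from -1.09 to -0.29, the last with an interval from -0.93 to 0.33. Plxnd1 had 1404 and 651 UMIs, at 42.6 and 29.4, a ratio of -0.53 (-0.67 to -0.40), and was lower in each of those 4 clusters. In this class Plxnd1 thus went the other way from excitatory neurons; the difference was not tested. Plxna4 (305 and 370) and Plxna2 (283 and 339) had ratios of 0.28 (0.24 to 0.32) and 0.26 (0.22 to 0.31). The factor of TMM scaling, a trimmed mean of log2 ratios over genes, was -0.13 in this class, -0.14 in microglia, -0.16 in excitatory neurons and -0.17 in cluster 1, and ratios relative to it are higher by as much.

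Interneurons had 25 measured members, of which none was higher and 3 were lower (Sema3c, Sema4a and Nrp1), against 2.48% and 11.6% of genes. Their Sema3c stood at 30.8 (control) and 15.9 (MIP) CPM, from 173 and 77 UMIs, a ratio of -0.95 (-1.36 to -0.56), with 54.9% of the control UMIs in 10 nuclei. The ratio was lower in each of the 3 clusters of the class, at -1.14, -1.11 and -1.26. Sema4a had a ratio of -0.84 (-1.30 to -0.40), which rested on 1 cluster at -2.05, while the others were at -0.42 and -0.01. Plxnc1, the receptor of Sema7a, was higher at 75.1 and 106 CPM, a ratio of 0.50 (0.31 to 0.69). Sema3a had a ratio of 0.43 (0.28 to 0.58), above that of each of its clusters, which were at 0.35 (0.18 to 0.52), -0.06 and -0.02. The first had the highest Sema3a, 157 and 200 CPM, and held 238 control and 346 MIP nuclei. The others held 154 and 115, and 84 and 59. With each cluster given the same weight in both libraries, its nuclei pooled over both, the Sema3a ratio was 0.25.

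Of the numbered clusters, only clusters 1 and 9 reached 60 Sema3c UMIs, and Sema3c was again lower in both. Cluster 1, the highest in Sema3c, had 1069 and 554 UMIs, a ratio of -0.53 (-0.68 to -0.38). Cluster 9 had 81 and 24 UMIs, a ratio of -1.46 (-2.18 to -0.79), with MIP at 5.88 CPM, beside 6.39 in MIP microglia. Sema3c was measured in 7 classes and clusters and its ratio was below 0 in all of them, from -2.24 to -0.16. Of the 9465 genes measured in the same 7, 22.4% were likewise below 0 in all. Not all of the 7 were above the microglial level. Astroglia (13.6 and 4.96 CPM) and spiny projection neurons (282 and 109 UMIs) were below it in both libraries. The largest cluster of spiny projection neurons (7.56 and 5.38 CPM) was below it too. The excitatory neurons gave the ratio nearest 0, at 19.8 and 17.7 CPM (-0.38 to 0.06), and their clusters went opposite ways. In 2 of them Sema3c was lower, at -0.82 (-1.32 to -0.33) and -0.57 (-1.01 to -0.13), while the others had 0.12 (-0.41 to 0.65) and 0.69 (0.29 to 1.10). Cycling progenitors, which did not reach 60 UMIs, had 14.4 and 15.5 CPM, a ratio of 0.11 (-0.80 to 0.96).

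Astroglia had 23 measured members, with 0 higher and 4 lower (Sema3a, Sema3c, Sema3e and Nrp1), against 3.88% and 12.1% of genes; the median was -0.25 beside -0.10. The Sema3a ratio over the class rested on a cluster of 13 control and 2 MIP nuclei, with a median of 23394 UMIs in control, which held 44 Sema3a UMIs in control and 0 in MIP nuclei. The main clusters of the class had Sema3a ratios of -0.24 (-0.88 to 0.38) and -0.26 (-0.92 to 0.38), neither past 1.5-fold. The same 13 control nuclei held 30 Sema3e UMIs, beside 18 and 48 in the main clusters, whose Sema3e ratios were -1.35 (-3.13 to 0.13) and -0.17 (-0.98 to 0.60). Sema3c had 94 and 21 UMIs, at 13.6 and 4.96 CPM, a ratio of -1.45 (-2.21 to -0.76), with -1.50 and -1.38 in the main clusters, and both levels were below those of microglia. Sema6a, high in astroglia, stood at 367 and 252, a ratio of -0.54 (-0.64 to -0.44). Sema5b (219 and 165) and Sema4a (43.6 and 29.5) had ratios of -0.41 (-0.54 to -0.28) and -0.56 (-0.88 to -0.26). Plxnc1 was higher at 0.33 (0.14 to 0.52). Neuroblast markers in astroglia summed to 3280 control and 2012 MIP CPM.

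Cycling progenitors had 17 measured members, 1 higher (Sema4d) and 2 lower (Nrp1 and Plxnb1), against 4.64% and 9.29% of genes. Sema5b was at 267 and 340 CPM, a ratio of 0.35 (0.17 to 0.53). Plxnc1 had 139 and 77 UMIs, a ratio of 0.49 (0.07 to 0.90). Plxnb1, the receptor of Sema4d, had 121 and 31, a ratio of -0.62 (-1.24 to -0.04). Its 2 clusters were at -0.81 and 0.28, and those of Sema4d at 0.20 and 1.79.

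The oligodendrocyte lineage had the highest class 5 semaphorins, and both were higher in the MIP library. Sema5a in differentiating oligodendrocytes had 1751 and 1080 UMIs and a ratio of 0.43 (0.32 to 0.54), and in precursors a ratio of 0.11 (0.02 to 0.20). Sema5b had a ratio of 0.37 (0.16 to 0.57) in differentiating cells and 0.35 (0.22 to 0.48) in precursors. Sema6a was lower in precursors, at 304 and 263 CPM, a ratio of -0.21 (-0.34 to -0.07). Plxna3, an X-linked class A plexin, had 84 and 22 UMIs in precursors, at 21.9 and 7.61 CPM, a ratio of -1.52 (-2.27 to -0.83). Of 21 members measured in precursors, 1 was higher (Sema4d) and 2 were lower (Nrp1 and Plxna3), against 3.13% and 11% of genes. Of 11 in differentiating oligodendrocytes, 0 were higher and 2 lower (Plxna4 and Sema4a), against 6.55% and 11.8%.

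Over the 9 named classes there were 188 measured pairs of a coding member and a class, of which 8 were higher and 26 lower in the MIP library. Of the 96807 measured pairs of any gene and a class, 4.26% were higher and 12.1% lower, so the members' counts were near the background. Under TMM scaling the split was 12 higher and 22 lower. With nuclei thinned to 2000 UMIs, 127 pairs were measured, 9 higher and 13 lower. The share over all genes is given here for the main setting only, so these alternative counts stand without a background. Nrp1, Sema3c, Sema3e and Sema4a were each lower in more than 1 class, and Sema4d and Plxnd1 were each higher in more than 1.

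A list of 40 genes that act with semaphorins (collapsin response mediators, plexin-bound exchange factors, small GTPases, kinases and co-receptors) gave 267 measured pairs, 8 higher and 17 lower, against the same 4.26% and 12.1% over all genes. In neuroblasts 29 of the 40 were measured, 1 higher and 1 lower, with a median of 0.06. Rras2, a Ras-family GTPase, was the higher one, at 22.4 and 38.8 CPM, a ratio of 0.79 (0.35 to 1.23). Cdk5, a kinase that phosphorylates collapsin response mediators, was the lower one, a ratio of -0.71 (-1.27 to -0.18). Nrcam, an adhesion partner of Nrp2, stood at 278 and 199, a ratio of -0.48 (-0.65 to -0.32). In astroglia Farp1, a plexin-bound exchange factor, was at 393 and 729, a ratio of 0.89 (0.82 to 0.97), and Mical2, an oxidase of actin, at 147 and 282, a ratio of 0.94 (0.82 to 1.06). In oligodendrocyte precursors Dpysl3, a collapsin response mediator, was at 293 and 176, a ratio of -0.74 (-0.89 to -0.59).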

How the data were processed

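The authors deposited raw counts of UMIs for each gene and barcode; the submitters' processing notes name Cell Ranger 5.0.1 and build mm10. How barcodes were called and animals pooled, and the strand setting, is not given in the sources used here. Barcodes with under 500 genes (0 control, 204 MIP) or over 5% mitochondrial UMIs (114 and 48) were left out. Scrublet in Scanpy 1.11.5 called 0 doublets by its own threshold in both libraries, so the top-scoring 0.8% per 1000 barcodes were removed (2301 and 1222). Nuclei were clustered together (3000 variable genes without the members and the list of acting genes, 40 components, 20 neighbours, Leiden resolution 1), giving 37 clusters, and named by at least 3 markers. UMIs were summed per class and library, with exact Poisson intervals, and ratios have conditional Clopper-Pearson intervals. Genes with at least 60 UMIs over both libraries were counted past 1.5-fold. Up to 6 members per direction and class were named, ranked by the interval bound nearest 0, where the interval excluded 0 and the level reached 20% of the gene's highest class. Positions are from GENCODE M21. Scripts were tested on simulated data. The members and lists were chosen with earlier results of these data known. Alternatives covered scaling, depth, doublets, clustering, class naming, minimum and fold; the finer neuroblast groups and the shared barcodes were added after seeing the data.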

Additional observations from a re-analysis of the deposited data

How the results depend on the processing

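No paired analysis was possible because each group has 1 library. Across 88 reported ratios and 518 values under alternative settings, 437 stayed within the reported interval and 80 moved outside it. For reported ratios past 1.5-fold, 1 value changed sign: Sema6b in neuroblasts, at 0.16 with classes from marker scores. Sign changes of smaller reported ratios were not counted apart from the values that moved. Sema3c in neuroblasts moved to -1.44 with classes from marker scores. It moved to -1.44 too with each finer group given the same weight in both libraries. The cause was not tested for the marker scores. Its share of control neuroblasts was 2.61% when thinned to 1000 UMIs and 8.24% unthinned. The count of higher pairs was 4 without doublet removal, 5 with a minimum of 200 UMIs, 17 with no minimum, 32 at the smaller fold tried and 0 at a fold of 2. The count of lower pairs was 13 with nuclei thinned to 2000 UMIs, 43 with a minimum of 20 UMIs, 13 with 200, 56 with no minimum, 52 at the smaller fold tried and 8 at a fold of 2. The share over all genes is not given for these settings, so none of these counts can be set against a background. The shifts with the minimum and the fold follow from how many genes pass each limit; for doublets and thinning the cause was not tested. Thinning moved 36 of the 99 values recomputed outside their interval or, for counts, past 1.5 times. For Sema3c 1 UMI in MIP neuroblasts is 0.517 CPM, against 0.198 in control ones.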
